A study of Homo sapiens with 8 samples.

Results

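YAP, TEAD and their target genes are represented by 10 genes chosen by symbol: the coactivators YAP1 and WWTR1 (TAZ), the DNA-binding partner TEAD1, and 7 genes known as their targets, CCN1, CCN2, ANKRD1, AMOTL2, AJUBA, CRIM1 and LATS2. They are 10 of the 60623 genes in the deposited table, each found as 1 row under its own symbol, and all 10 passed the filter on low counts that 15010 genes passed. The study treated ARPE-19, an established human line of retinal pigment epithelium, and sequenced its polyadenylated RNA in 8 libraries. The control received PBS, the fucoidan group 400 µg/mL of crude fucoidan from the brown alga Fucus vesiculosus, the particulate group 200 µg/mL of a diesel particulate reference material, and the combination group both at the same doses, added together. Every group was exposed for 24 h in serum-containing medium without antibiotics and has 2 replicates, which the labels call biological. The particulate was first suspended in DMSO and diluted in PBS, whereas the control label names PBS alone, so a part played by the solvent cannot be told apart from the particulate. All libraries come from 1 cell line.

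The libraries held 12993565 to 17019284 reads assigned to genes. Of the markers of mature pigment epithelium, RPE65 had 2 reads, RGR 1, TYRP1 15 and TYR 24 in all 8 libraries together, whereas BEST1 had 250, RLBP1 511, LRAT 516 and PMEL 1120 reads, with none of these above 12.9 CPM in any library. The epithelial keratin KRT8 stood at 999 to 2186 CPM (counts scaled to library size), KRT18 at 567 to 1491, OTX2 at 31.3 to 96.6 and MITF at 16.8 to 76.9. The 13 pigment epithelium markers summed to 3361 to 3872 CPM in the 4 libraries without particulate and to 1653 to 2240.1 CPM in the 4 with it, of which KRT8 and KRT18 made 94.5% to 96.8%. The other 11 markers summed to 174 to 206 CPM without particulate and 72.5 to 87.8 CPM with it, although BEST1, among them, went the other way, at 0.32 to 1.33 CPM without particulate and 2.08 to 3.93 CPM with it. The part of these differences in the values below was not tested. Marker lists of photoreceptors, endothelium and leukocytes each summed to at most 0.40 CPM in any library. The combination replicates differed more than those of the other groups: 11.6% of the tested genes differed at least 2-fold between them, against 1.86% in control, 1.79% in fucoidan and 4% in particulate.

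YAP and TAZ are transcriptional coactivators that reach DNA through TEAD proteins. When the Hippo kinases, MST acting on LATS, are active, they phosphorylate YAP and TAZ and hold them outside the nucleus, whereas cell spreading and actin tension favour nuclear entry. Because this control acts on the proteins, the messages of target genes are commonly read as its output, and several targets, LATS2, AMOTL2 and AJUBA among them, act back on the pathway.

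TEAD proteins bind the core GGAATG, or CATTCC on the other strand, and 4 windows around a transcription start are printed because they carry that core: those of CCN2, AMOTL2 and AJUBA, which fell with particulate, and that of ANKRD1, which edgeR did not call with all libraries but which of the 10 genes varied most between the combination libraries. Each runs from 250 bases before to 50 bases after an annotated start (RefSeq, build GRCh38.p14, minus strand, 5′ to 3′), with the core in capitals and, in ANKRD1 alone, also the AP-1 site TGANTCA. They lie at chr6:131951323-131951622 for CCN2, chr10:90921038-90921337 for ANKRD1, chr3:134374398-134374697 for AMOTL2 and chr14:22976793-22977092 for AJUBA.
CCN2: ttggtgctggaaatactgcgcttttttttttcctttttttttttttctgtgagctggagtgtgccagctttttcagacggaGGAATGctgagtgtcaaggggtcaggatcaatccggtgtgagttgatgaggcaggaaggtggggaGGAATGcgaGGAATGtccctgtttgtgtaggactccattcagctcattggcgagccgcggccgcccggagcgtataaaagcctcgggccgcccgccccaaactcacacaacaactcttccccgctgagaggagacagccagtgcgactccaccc
ANKRD1: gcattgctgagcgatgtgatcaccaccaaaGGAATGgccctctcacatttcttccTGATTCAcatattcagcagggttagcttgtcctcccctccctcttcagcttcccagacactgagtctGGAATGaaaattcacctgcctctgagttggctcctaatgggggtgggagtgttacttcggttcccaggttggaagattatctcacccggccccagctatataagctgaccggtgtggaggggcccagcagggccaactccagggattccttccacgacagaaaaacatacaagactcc
AMOTL2: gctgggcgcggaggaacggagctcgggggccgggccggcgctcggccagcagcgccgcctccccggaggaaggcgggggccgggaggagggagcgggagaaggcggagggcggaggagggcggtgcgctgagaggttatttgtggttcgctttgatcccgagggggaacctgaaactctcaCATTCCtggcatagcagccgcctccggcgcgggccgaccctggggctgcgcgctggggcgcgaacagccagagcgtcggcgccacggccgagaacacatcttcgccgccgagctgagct
AJUBA: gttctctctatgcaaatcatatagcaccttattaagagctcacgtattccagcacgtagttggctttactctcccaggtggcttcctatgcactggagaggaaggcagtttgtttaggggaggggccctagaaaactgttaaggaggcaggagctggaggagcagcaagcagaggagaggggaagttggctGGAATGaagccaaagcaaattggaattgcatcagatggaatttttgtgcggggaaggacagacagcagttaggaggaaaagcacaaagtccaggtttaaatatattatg
The CCN2 window holds 3 cores, starting -169, -104 and -95 bases from the start site. ANKRD1 holds 2 cores, at -220 and -128, with the AP-1 match at -195. AMOTL2 and AJUBA, which each have a second window without the core, hold 1 core at -69 and -59. Windows were at hand for 7 of the 10 genes, 10 windows in all, and 6 of the 7 genes (6 of 10 windows) held the core on either strand, YAP1 and LATS2 being the others. The core is present in 14% of the 35116 windows of the same length, and TGANTCA, searched on both strands, in 7.71%. No member window held the CArG box of serum response factor, found in 1.29% of all windows. A match is a string of letters, and none of these data measure binding.

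Per transcript length, the secreted matricellular proteins CCN1 and CCN2 were the most abundant of the 10 messages in control, at 3870.4 ± 267 and 2418 ± 102 TPM (transcripts scaled to length and library, ± SD, n = 2 here and throughout), and CCN1 ranked 21 of 15010 genes. CRIM1, a transmembrane protein that binds bone morphogenetic proteins, followed at 584 ± 24.2 TPM, and ANKRD1, a cardiac ankyrin repeat protein found in muscle and nucleus, at 219 ± 22.5 TPM. AMOTL2 (129 ± 17.6 TPM), TEAD1 (126 ± 7.65 TPM) and YAP1 (120.4 ± 5.83 TPM) overlapped between replicates, so their order is not resolved. AJUBA stood at 109 ± 8.19 TPM, WWTR1 at 45.2 ± 2.84 TPM and LATS2 lowest at 30.04 ± 2.42 TPM. With fucoidan alone the order was the same apart from TEAD1 and AMOTL2, which overlapped. With particulate, YAP1 (122 ± 41.9 TPM) stood above ANKRD1 (86.8 ± 2.47 TPM) and AMOTL2 (36.3 ± 6.20 TPM) below AJUBA (50.7 ± 8.28 TPM), both without overlap, whereas AMOTL2 and WWTR1 (52.0 ± 17.9 TPM) overlapped. In the combination ANKRD1 (550.2 ± 429 TPM) stood above CRIM1, its 2 libraries far apart.

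**Figure D1:**
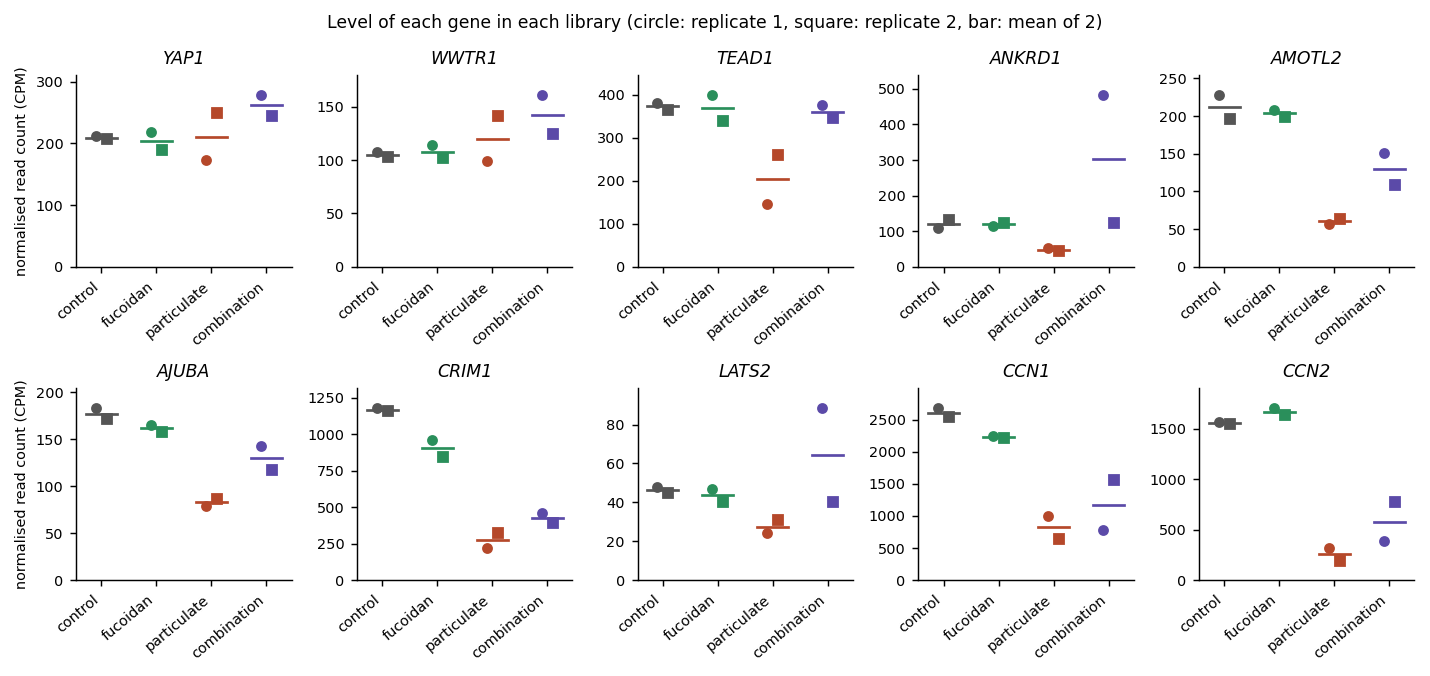
Level of each of the 10 genes in CPM (vertical axis, from 0) by group; circles are replicate 1, squares replicate 2 and bars the mean of 2. YAP1 and WWTR1 overlap between control and particulate, whereas CCN2 lies at 1547 and 1571 CPM in control and 195 and 319.6 CPM in particulate.

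The first comparison asks how the particulate alone changed these messages. The messages of the targets CCN1, CCN2, CRIM1, AMOTL2 and AJUBA and of TEAD1 fell, and those of the coactivators YAP1 and WWTR1 did not pass the test in either direction. Of the 10, CCN2 stood lowest against its control, at 16.5% of the control mean. In bulk RNA, fewer cells of a type and less RNA per cell cannot be told apart.

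YAP1 read 212 and 207 CPM in control and 174 and 249 CPM in particulate. The particulate replicates lay on either side of both controls, and the log2 change was 0.01 ± 0.19 (± SE; adjusted p = 0.973, edgeR quasi-likelihood test, Benjamini-Hochberg over all 15010 genes, as for every adjusted p here unless another tool is named). WWTR1, which encodes the YAP paralogue TAZ, read 107 and 103 CPM in control and 98.8 and 142 CPM in particulate, again overlapping (0.20 ± 0.20, adjusted p = 0.528). TEAD1 read 380.2 and 365 CPM in control and 147 and 260.0 CPM in particulate. Both treated libraries lay below both controls but far from each other, and the fall of 0.87 ± 0.24 on the log2 scale passed at an adjusted p of 0.0292. That call was lost in 5 of the 8 fits that each left out 1 library: without control replicate 1 (0.162) or 2 (0.12), fucoidan replicate 1 (0.0503) or 2 (0.0504), or particulate replicate 1 (0.102, with a log2 change of -0.48). It was also lost in limma on log2 TPM plus 1 (0.0542) or 0.1 (0.0548).

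CCN2 read 1571 and 1547 CPM in control and 319.6 and 195 CPM in particulate, a log2 change of -2.60 ± 0.32 (adjusted p = 0.00065). CCN1 read 2675 and 2537 CPM in control and 995 and 647 CPM in particulate, a change of -1.67 ± 0.30 (0.00477). In both genes the treated libraries lay well below the controls, with particulate replicate 2 the lower. CRIM1 read 1178 and 1162 CPM in control and 218 and 326 CPM in particulate, a change of -2.10 ± 0.20 (0.000159). AMOTL2, an angiomotin family scaffold that binds YAP and holds it at junctions, read 228 and 196 CPM in control and 57.1 and 63.5 CPM in particulate, a change of -1.81 ± 0.18 (0.000202). AJUBA, a LIM domain protein that binds LATS kinases and limits them, read 183 and 172 CPM in control and 78.9 and 86.8 CPM in particulate, a change of -1.10 ± 0.15 (0.00117). These 5 falls passed in each of the 8 fits that left out 1 library.

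ANKRD1 read 109 and 131 CPM in control and 52.3 and 43.9 CPM in particulate, and LATS2, one of the kinases that phosphorylate YAP, read 48.1 and 44.9 CPM in control and 24.1 and 30.8 CPM in particulate. Both genes were lower in each particulate library than in each control, but neither passed (-1.32 ± 0.48, adjusted p = 0.08; -0.76 ± 0.31, adjusted p = 0.116). The spread in the test is shared with the combination libraries, in which both genes vary widely. In the edgeR fit of the control and particulate groups alone, ANKRD1 (adjusted p = 6.81e-05) and LATS2 (0.00618) passed. Both also passed in limma-voom with library weights (0.00607 and 0.0233). With the replicate number as a block in edgeR, neither passed (0.0822 and 0.135). Without combination replicate 1 or 2 both passed, with log2 changes of -1.32 for ANKRD1 and -0.76 for LATS2. In those fits the spread estimated over all genes (common dispersion) was 0.0138, against 0.0288 with all libraries. More genes in general passed there too. The SE went from 0.48 to 0.15 for ANKRD1 and from 0.31 to 0.16 for LATS2. How far the gain was particular to these genes was not tested.

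Of the 10 genes, 6 fell and 0 rose, where 11.5% of all tested genes fell, 9.11% rose and 20.6% were called in either direction. The libraries did not overlap in 8 of the 10, all lower in particulate, against 32.3% of all genes lower and 32.7% higher without overlap. The median log2 change was -1.21 over the 10 and 0.01 over all genes.

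Fucoidan alone was compared with control to read its own change. No member passed, and no gene of the 15010 did (0% called). At an unadjusted p under 0.05 there were 0 members and 662 genes, and DESeq2 called 0 members and 23 genes. Log2 changes ran from -0.37 ± 0.20 in CRIM1 (95% interval -0.81 to 0.07) to 0.10 ± 0.30 in CCN2 (-0.58 to 0.78). CRIM1 read 964 and 844 CPM with fucoidan, both below its controls. It passed in the edgeR fit of those groups alone (adjusted p = 0.0416), which called 849 genes where the fit of all groups called 0. CCN1 read 2240.2 and 2214 CPM and AJUBA 166 and 158 CPM, also below both controls, and CCN2 read 1703 and 1636 CPM, above both. Non-overlap of this kind was common, with 24.8% of all genes lower and 23.2% higher. The other members overlapped with control: YAP1 read 218 and 189 CPM, WWTR1 114 and 102, TEAD1 399 and 339.7, ANKRD1 115 and 123, AMOTL2 208 and 199 and LATS2 47.1 and 40.1 CPM.

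**Figure D2:**
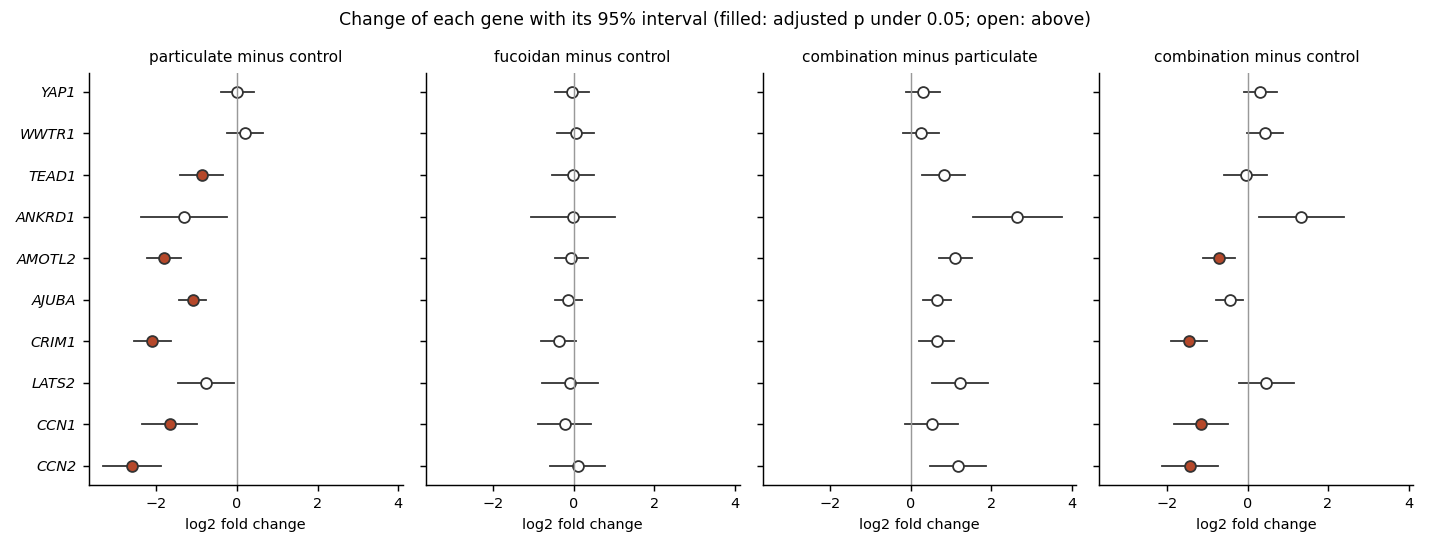
Log2 fold change of each of the 10 genes in 4 comparisons, with its 95% interval from the edgeR fit; filled points passed an adjusted p of 0.05. All 10 lie above 0 for combination minus particulate without a filled point, and CCN2 lies at -2.60 for particulate minus control.

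The combination was then set against particulate alone, which asks what fucoidan changed in the presence of the particulate. All 10 genes had a positive estimate and none passed, where 0.0866% of all genes (13 of 15010) were called, 0.0799% higher and 0.00666% lower. At an unadjusted p under 0.05 there were 7 members and 2599 genes. DESeq2 called 6 members higher (TEAD1, ANKRD1, AMOTL2, AJUBA, LATS2 and CCN2) and 306 genes, whereas limma on log2 TPM and limma-voom with library weights called 0 members. In 7 of the 10 genes both combination libraries lay above both particulate libraries, against 20.9% of all genes, and in 0 both lay below, against 20.4%. The median log2 change was 0.74 beside 0.02 over all genes. This comparison shares its particulate libraries with particulate against control, so low values there enter both.

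TEAD1 read 375 and 344 CPM in the combination, above the particulate libraries and near the controls, a log2 change of 0.82 ± 0.24 over particulate (adjusted p = 0.218). YAP1 read 278 and 245 CPM (0.31 ± 0.19, 0.392) and WWTR1 161 and 124 CPM (0.25 ± 0.20, 0.518). For those coactivators the combination and particulate libraries overlapped.

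AMOTL2 read 151 and 109 CPM in the combination, between particulate and control, a log2 change of 1.11 ± 0.18 over particulate (adjusted p = 0.0717). AJUBA read 143 and 117 CPM (0.65 ± 0.15, 0.183) and CRIM1 459.9 and 392 CPM (0.65 ± 0.20, 0.229). All 3 lay above both particulate libraries and below both controls. ANKRD1 read 482 and 123 CPM (2.65 ± 0.49, 0.111) and LATS2 88.3 and 40.3 CPM (1.23 ± 0.31, 0.203). In both, replicate 1 exceeded every control and replicate 2 did not, 3.94-fold apart for ANKRD1 and 2.19-fold for LATS2. CCN1 read 788 and 1566 CPM (0.52 ± 0.30, 0.368) and CCN2 390.3 and 770.5 CPM (1.17 ± 0.31, 0.209). For these secreted proteins replicate 2 was the higher, 1.99-fold for CCN1 and 1.97-fold for CCN2, and CCN1 in replicate 1 lay within the particulate range.

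Calls here rest on which combination library is used. Without combination replicate 1, ANKRD1 (1.35, adjusted p = 0.00869) and CCN2 (1.58, 0.0187) passed, among 53 genes. Without combination replicate 2, TEAD1, ANKRD1, AMOTL2, AJUBA, CRIM1 and LATS2 passed, among 3142 genes, and the estimate for CCN1 turned to -0.06. ANKRD1 passed in both, at 1.35 and 3.32.

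A list of 10 transcripts of glycolysis and hypoxia was chosen with these data known, to describe the library that stood apart. The difference of these transcripts between the combination libraries is therefore a description and no test. Combination replicate 1 held 15514 CPM of them in sum and replicate 2 held 3002 CPM, with 10 of 10 higher in replicate 1. Their sum was 3947 and 7209.9 CPM in particulate, where 0 of 10 were higher in replicate 1, 6623 and 6649 CPM in control and 7522 and 7685 CPM in fucoidan. In particulate, ANKRD1 was higher in replicate 1 (52.3 and 43.9 CPM) and LATS2 in replicate 2 (24.1 and 30.8 CPM). CCN1 (995 and 647 CPM) and CCN2 (319.6 and 195 CPM) were also higher in particulate replicate 1. The part of the 10 transcripts in the values of ANKRD1, LATS2, CCN1 and CCN2 was not tested.

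**Figure D3:**
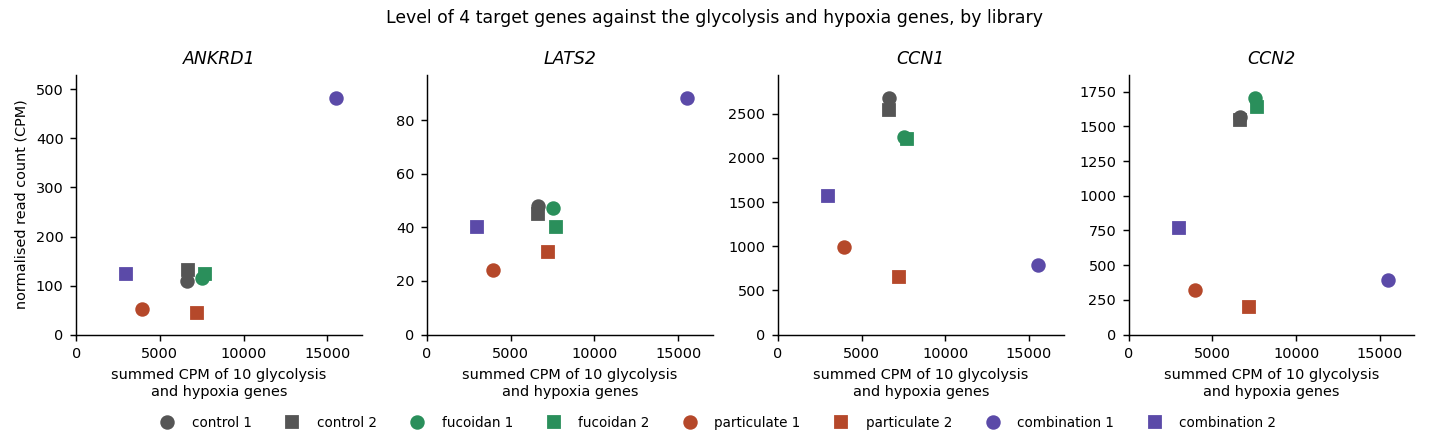
CPM of ANKRD1, LATS2, CCN1 and CCN2 (vertical axis) against the summed CPM of 10 glycolysis and hypoxia transcripts (horizontal axis); each point is 1 of the 8 libraries. Combination replicate 1 holds 15514 CPM of those transcripts with 482 CPM of ANKRD1, and combination replicate 2 holds 3002 CPM with 123 CPM of ANKRD1.

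Whether fucoidan changed these messages differently with and without particulate was tested as an interaction. All 10 estimates were positive and 0 passed, where 0% of genes passed. The median was 0.93 over the 10 and 0.02 over all genes. The interaction also uses the particulate libraries, so low values there raise these estimates too. At an unadjusted p under 0.05 there were 7 members and 668 genes, and DESeq2 called 0 members and 20 genes. ANKRD1 had the largest estimate, 2.66 ± 0.67 (adjusted p = 0.865), and AMOTL2 the smallest p, 1.16 ± 0.25 (0.642). Without combination replicate 2, 5 members passed among 851 genes, and without replicate 1 none of the members did.

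Against control, 4 of the 10 messages fell in the combination, where 8.86% of all genes fell, 8.17% rose and 17% were called. CRIM1 (-1.46 ± 0.20, adjusted p = 0.00181), CCN2 (-1.43 ± 0.31, 0.0148), CCN1 (-1.15 ± 0.30, 0.0299) and AMOTL2 (-0.71 ± 0.18, 0.0273) were lower. TEAD1 was at -0.05 ± 0.23 (0.9), with an interval of -0.58 to 0.48, and ANKRD1 at 1.33 ± 0.47 (0.0803). Both combination libraries lay below both controls in 5 members, the 4 above and AJUBA, against 31% of all genes, and above them in YAP1 and WWTR1, against 30.9%. CRIM1 alone passed without control replicate 1 or 2, CRIM1 and CCN2 passed without either fucoidan library, CCN1 stood at 0.0508 without combination replicate 1, and without combination replicate 2 there were 7 member calls, 3 of them rises (WWTR1, ANKRD1 and LATS2), in a fit that called 4999 genes where 2556 were called with all libraries.

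Against fucoidan alone, AMOTL2 (-0.65 ± 0.18, adjusted p = 0.0312), CRIM1 (-1.09 ± 0.20, 0.00567) and CCN2 (-1.52 ± 0.31, 0.00918) were lower in the combination, 3 of 10 where 10.6% of all genes fell, 10.2% rose and 20.7% were called. CCN1 stood at -0.92 ± 0.30 (0.0546). The combination libraries lay below both fucoidan libraries in 5 members, against 31.1% of all genes, and above in YAP1 and WWTR1, against 31.8%. AMOTL2 did not pass without either control (0.062 and 0.0622), either fucoidan library (0.172 and 0.138) or combination replicate 2 (0.0578). Without fucoidan replicate 1 no member passed among 794 genes called, and without combination replicate 2 there were 6 member calls, 3 rises (WWTR1, ANKRD1 and LATS2) and 3 falls, among 5227 genes, where 3110 genes were called with all libraries.

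Across the 8 libraries some members had similar profiles, given as Pearson correlations of log2 CPM that share the 4 groups and carry no test. AMOTL2 and AJUBA followed each other most closely (0.996), then CCN1 and CCN2 (0.975), AJUBA and CRIM1 (0.951), ANKRD1 and LATS2 (0.946), AMOTL2 and CRIM1 (0.944), and YAP1 and WWTR1 (0.939). ANKRD1 and CCN1 did not (0.0978). Of 10910 genes averaging 5 CPM or more, those most like CCN1 were CDC25C (0.977), ATOH8 (0.975) and PLK2 (0.975), those most like CCN2 were TSPAN2, NDE1 (0.985 each) and BTG2 (0.984), and those most like ANKRD1 were CHMP4C (0.979), KLF11 (0.971) and SRGAP2 (0.961).

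Of 28 further Hippo pathway genes, 27 could be tested, DCHS1 having only 37 reads. With particulate 7 fell and 1 rose among them, 25.9% and 3.7% where 11.5% and 9.11% of all genes did, with a median log2 change of -0.06 beside 0.01 over all genes. VGLL3, a TEAD cofactor, went from 165 ± 0.77 CPM to 25.9 ± 13.4 CPM (-2.67 ± 0.30, adjusted p = 0.000419). The atypical cadherins FAT4 (-1.82, 0.0064) and FAT1 (-1.07, 0.0357), the upstream activator NF2 (-0.75, 0.00491), and the scaffolds WWC2 (-1.19, 0.00591), WWC1 (-0.65, 0.0128) and SAV1 (-0.92, 0.0464) were lower, and TEAD4 higher (0.61, 0.0492). The count of 8 calls was smaller without either control or without particulate replicate 1, and larger without either combination library. Without control replicate 1 the calls of NF2, WWC2, FAT4, WWC1 and FAT1 were among those lost, with log2 changes still negative. Calls over all genes moved the same way in each of these fits. The count was 5 by limma on log2 TPM and 5 with the replicate number as a block. With the block 2534 genes were called, against 3089 without it. In the combination against particulate 0 passed, 10 of 27 had an unadjusted p under 0.05, as did 2599 of 15010 genes, and the median was 0.29 beside 0.02 over all genes. DESeq2 called 4 higher, 1 passed without combination replicate 1 and, without combination replicate 2, 11 were higher and 1 lower among 3142 genes. VGLL3 read 89.8 ± 5.66 CPM there (1.79 ± 0.30, 0.0742), a gene named after its value was seen. Against control the combination had 4 higher, MOB1B (0.96), FRMD6 (0.76), TAOK3 (0.71) and LIMD1 (0.72), and 2 lower, NF2 (-0.67) and WWC1 (-0.48), 14.8% and 7.41% where 8.17% of all genes rose and 8.86% fell. These 6 calls were lost without either control, became fewer without either fucoidan library and became more without combination replicate 2. Calls over all genes moved the same way in those fits but were not all lost. The calls of the list also became fewer without combination replicate 1 and more without either particulate library. They became 3 in the fit of those groups alone, where 1026 genes were called, and 3 with the block, where 1872 were. In the fit of all groups without the block, 2556 genes were called. They became 2 by limma on log2 TPM and 10 by DESeq2. Against fucoidan the combination had 4 higher, MOB1B (0.77), LIMD1 (0.73) and TAOK3 (0.72) among them, and 4 lower, among them FAT4 (-1.28), VGLL3 (-1.04) and NF2 (-0.74), 14.8% each way where 10.2% of all genes rose and 10.6% fell. These 8 calls were lost without either fucoidan library and became fewer without either control. Calls over all genes became fewer in those fits but were not all lost. The calls of the list also became fewer without combination replicate 1. They became 2 by limma on log2 TPM and 4 in the fit of those groups alone. That fit called 1511 genes, against 3110 with all groups.

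Of 18 other genes known as YAP and TEAD targets, all tested, 9 fell and 1 rose with particulate, 50% and 5.56% where 11.5% and 9.11% of all genes did, with a median of -0.63 beside 0.01 over all genes. TGFB2, a growth factor, went from 484 ± 2.28 to 50.7 ± 7.99 CPM (-3.25 ± 0.18, adjusted p = 1.72e-05). CAVIN2, a caveolar coat protein, went from 43.0 ± 3.92 to 2.25 ± 0.0086 CPM (-4.25 ± 0.42, 0.000169). CCDC80 (-1.64, 0.000115), ARHGEF17 (-1.04, 0.00175) and RBMS3 (-1.18, 0.00265) also fell, and NT5E, the ecto-5'-nucleotidase CD73, rose from 395 ± 29.96 to 1093 ± 133 CPM (1.47 ± 0.15, 0.000244). In the combination 1 rose over particulate, TGFB2, to 127 ± 15.0 CPM (1.33 ± 0.17, 0.0255), 5.56% where 0.0799% of all genes rose. That call was lost when any control, fucoidan or particulate library was left out, with the log2 change positive in each fit. It was also lost in limma on log2 TPM plus 1 (adjusted p = 0.111) or 0.1 (0.0891) and with the replicate block (0.0829). The fit of the compared groups alone (0.518) and limma-voom with library weights (0.0708) lost it too. DESeq2 called 3 of the list higher and 1 lower, among 306 genes. Against control the combination had 2 higher, NT5E (1.14) and AMIGO2 (0.72), and 5 lower, among them CAVIN2 (-3.41), TGFB2 (-1.92), CCDC80 (-1.26) and TGFB1I1 (-0.86), 11.1% and 27.8% where 8.17% of all genes rose and 8.86% fell. Against fucoidan 2 were higher, NT5E (1.40) and GADD45A (0.90), and 6 lower, among them CAVIN2 (-2.97), TGFB2 (-1.82) and CCDC80 (-1.46), 11.1% and 33.3% where 10.2% of all genes rose and 10.6% fell. With 1 library left out, the count of 7 calls was lowest without control replicate 1 and the count of 8 without either fucoidan library. Both counts were highest without combination replicate 2. Calls over all genes were also lowest and highest in those fits.

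**Figure D4:**
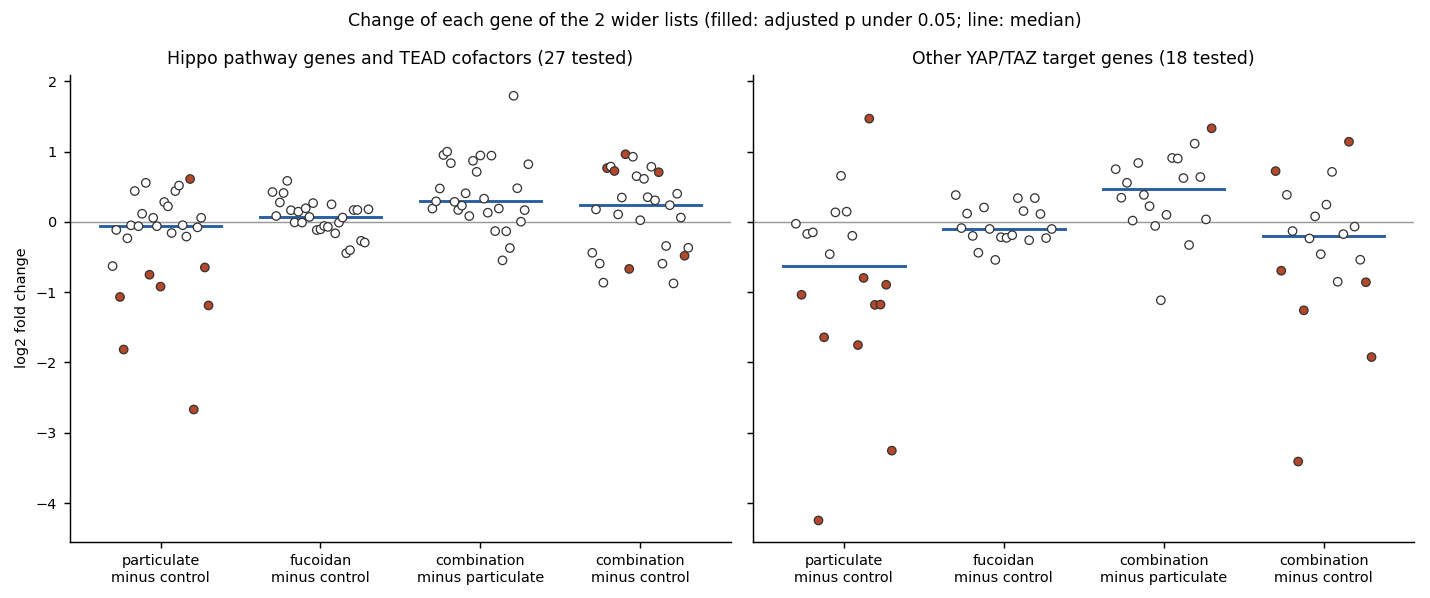
Log2 fold changes of the 27 tested Hippo pathway genes and TEAD cofactors and of the 18 other targets in 4 comparisons; points are genes, filled at an adjusted p under 0.05, and lines are medians. For particulate minus control the medians are -0.06 and -0.63.

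By GENCODE 29 on GRCh38, the members lie apart in the genome, for example CCN1 on chromosome 1 from 85580761 to 85583962 and CCN2 on chromosome 6 from 131948176 to 131951373. Opposite-strand exons cover 9.97% of the exon bases of YAP1, 9.45% of WWTR1 (WWTR1-AS1), 8.34% of CCN2 and 2.49% of CRIM1. No source used here gives the strand option of the counting, and reads in these overlaps may belong to either gene.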

How the data were processed

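The authors deposited whole-number read counts for each gene; per the submitters' processing notes they came from featureCounts of Subread 2.0.1 on HISAT2 2.1.0 alignments to GRCh38, after fastp 0.20.0. Deposited TPM, per the file headers, served for levels per length and for one alternative fit. No source used here gives the annotation release or strand setting.

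Genes passing filterByExpr (15010 of 60623) were fitted in all 8 libraries with 4 group means by edgeR 4.0.16 (TMM, quasi-likelihood; R 4.3.3), with 4 residual and 5.57 prior degrees of freedom, for 6 contrasts. Calls are at an adjusted p under 0.05 over all genes. CPM in the text use TMM library sizes. The edgeR p-values rest on the spread between the 2 replicates a group, pooled over the 4 groups and moderated over all genes. Alternatives used DESeq2 1.42.0, limma 3.58.1 (log2 of TPM plus 1 or 0.1), other filters, the 2 compared groups alone, a replicate block and each library left out.

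The members and lists were chosen with earlier results of these data known. All members are named; from each wider list up to 6 called genes per comparison, and the 3 genes most like CCN1, CCN2 and ANKRD1 among those with a mean of at least 5 CPM. SAV1, TEAD4, AMIGO2 and GADD45A were named beyond it to complete a count, and VGLL3 in the combination after its value was seen.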

Additional observations from a re-analysis of the deposited data

Results flagged for a closer look

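AJUBA and CRIM1 drew attention because every library moved one way under fucoidan alone and the other way under fucoidan with particulate. Both were lower with fucoidan than in control in both libraries, and higher in the combination than with particulate in both, by 0.65 on the log2 scale in each gene. Such non-overlap was common over all genes, with 24.8% lower in the first comparison and 20.9% higher in the second. The share of genes showing both was not counted. That opposition of libraries is not itself a test. The interaction, which tests the difference, did not pass for either gene (adjusted p = 0.897 for each, edgeR), and it passed for both without combination replicate 2.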

How the results depend on the processing

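Of 1010 member values recomputed under the alternatives, 887 kept direction and call, 30 lost a call, 59 gained one and 34 changed sign; the causes were not tested. Member calls with 1 library left out ran from 5 to 8 (particulate minus control), 0 (fucoidan minus control), 0 to 6 (combination minus particulate), 0 to 6 (minus fucoidan), 1 to 7 (minus control) and 0 to 5 (interaction). The matching calls over all genes ran from 954 to 4973, 0 to 32, 0 to 3142, 794 to 5227, 428 to 4999 and 0 to 851. For fucoidan minus control, all genes gave 23 calls (DESeq2), 73 (no filter), 1 (TPM plus 1), 849 and 1 member (the groups alone) and 313 (voom). For combination minus particulate they gave 306 and 6 members (DESeq2), 1197 and 8 members (no filter), 5 or 6 (TPM), 0 (groups alone), 4 (voom), 3 (replicate block) and 63 with 1 member (crossed block, chosen after seeing the data, as was voom). Groups alone gave 1511 genes against fucoidan and 1026 with 1 member against control; no filter gave 6 members against fucoidan. The interaction gave 20 genes (DESeq2), and 156 with 5 members (no filter). Without the filter the prior degrees of freedom became infinite, so a gene's own spread no longer counted.

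Sign changes were as follows. For particulate minus control, YAP1 was -0.033 (mean of at least 5 CPM), -0.028 (TPM) and -0.010 (voom), and -0.27 to 0.28 with 1 library left out, and WWTR1 was -0.087 to 0.47. For fucoidan minus control, TEAD1 was 0.00061 (5 CPM) and 0.030 (TPM), ANKRD1 0.0058 (5 CPM), 0.044 and 0.045 (TPM) and 0.0022 (groups alone), and YAP1 0.0011 and 0.0010 (TPM). With 1 library left out there, YAP1 ran from -0.15 to 0.057, WWTR1 -0.040 to 0.12, TEAD1 -0.13 to 0.10, ANKRD1 -0.14 to 0.14, AMOTL2 -0.16 to 0.055 and LATS2 -0.21 to 0.020. Some estimates that turned were larger: with 1 library left out, CCN1 in combination minus particulate (0.52) and LATS2 in combination minus fucoidan (0.56) and minus control (0.47). In combination minus particulate WWTR1 ran from -0.010 to 0.53 and CCN1 from -0.058 to 0.93, minus fucoidan TEAD1 from -0.15 to 0.083 and LATS2 from -0.11 to 1.02, minus control TEAD1 from -0.11 to 0.010 and LATS2 from -0.21 to 0.93, and in the interaction WWTR1 from -0.075 to 0.49.

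Deviations of same-numbered replicates correlated between -0.25 and 0.0754 over the pairs of groups. The lowest were fucoidan with particulate (-0.25) and particulate with combination (-0.224). With 2 replicates a group, these values cannot show whether the samples were paired. With the replicate block, 3 members were called in the combination against control (CCN1 at 0.0523). With 2 libraries a group, an effect that misses the threshold is not shown to be absent.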
